A study of Mus musculus with 6 samples.

Results

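Tropomyosins are coiled-coil proteins that lie along actin filaments and set which myosins, severing factors and nucleators can act on them. Mammals carry 4 tropomyosin genes, named Tpm1 to Tpm4 in the mouse, and each of the larger ones makes several proteins through alternative promoters and exons. In the retinal pigment epithelium (RPE), the pigmented layer behind the photoreceptors, actin filaments build the apical microvilli, the belt at the cell junctions and the cup that engulfs shed photoreceptor tips. A retrocopy is a copy of a spliced messenger RNA that was written back into the genome, and Tpm3-rs7 is an intronless retrocopy of Tpm3. The members described here are Tpm1, Tpm2, Tpm3, Tpm4 and Tpm3-rs7, taken by gene name, and they are 5 of the 54532 genes in the deposited table. They were chosen by family membership and on the counts of Tpm3 and Tpm3-rs7 in these same libraries, so their difference between the genotypes is described without a test.

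RPE RNA was sequenced from 3 Abca4KO mice, the Jackson line carrying the Abca4tm1Ght allele on both chromosomes (Abca4-/-), and from 3 wild-type (WT) mice of the strain labelled 129S1/SvlmJ. Both groups carried the Leu450 form of Rpe65, were kept under a daily light cycle on a standard diet, and were sampled 5 h after light onset. Line and genotype change together, so their parts cannot be told apart. The labels give no ages. Abca4 encodes a transporter that clears retinoids from photoreceptor discs.

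Total counts lay between 17047286 and 19841307 per library. Abca4 measured 32.6 to 39.1 CPM (counts scaled to a common library size with edgeR's TMM factors) in the Abca4KO libraries and 932 to 968 CPM in the WT libraries, so that every library matched its label. All 10 RPE markers, among them Rpe65, Rlbp1 and Best1, were tested, and their summed level was 37480 to 39335 CPM in Abca4KO and 31332 to 40749 CPM in WT. Markers of muscle, vessels, macrophages and rods were also present in every library. Of the single libraries, WT 2 held 2311 CPM of 10 summed interferon response genes, where the other 5 libraries held 209.3 to 320 CPM. Abca4KO 1 held 1605 CPM of 7 summed rod markers, against 283 to 802 CPM elsewhere. In the comparison over all genes, 8 of 17340 tested genes (0.0461%) passed a threshold of 0.05 on the adjusted p, by the quasi-likelihood test of edgeR. In whole tissue RNA, fewer cells of a type and less RNA per cell cannot be told apart.

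Tpm3-rs7 is close to a letter-for-letter copy of 1 Tpm3 transcript. In GENCODE M21 on the mouse build mm10, Tpm3 (ENSMUSG00000027940) spans chromosome 3 bases 90072649 to 90100902 (plus strand) and has 16 annotated transcripts. Tpm3-rs7 (ENSMUSG00000058126) spans chromosome 14 bases 113314608 to 113316754 (plus strand) and has 1 transcript with 1 exon. It matched an 8-exon Tpm3 transcript from base 126 to that transcript's end at base 2230, across all 7 exon junctions. Over the 2102 aligned bases the sequences were 99.4% identical, with 13 substitutions and 3 short gaps. The longest run of Tpm3 bases that all match the copy was 757 bases, and 1 extra Tpm3-rs7 base lies within it, after Tpm3 position 943.

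The differences are spread unevenly along the copy. The coding sequence held 3 substitutions, G264A, G290A and G319A, and the 3′ untranslated region held the other 10 and all 3 gaps. In these names the Tpm3 base comes first, then its position counted from 1 at the 5′ end of the 8-exon Tpm3 transcript, then the Tpm3-rs7 base. G264A leaves the amino acid as it is, while G290A and G319A each change it. The reading frame of Tpm3-rs7 is open, with 248 codons before the stop as in the 8-exon transcript. The deposited table lists Tpm3-rs7 as protein coding, whereas RefSeq on GRCm38.p6 lists it as a pseudogene.

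The coding stretch that holds all 3 coding differences is shown because, within the aligned part, only reads that cover 1 of these positions, an untranslated difference or a gap carry letters that differ between the genes. Capitals mark the differing bases. The Tpm3 stretch is bases 234 to 349 of the 8-exon transcript, spliced across an intron within chr3:90079773-90086470, and the Tpm3-rs7 stretch is the unbroken chr14:113314717-113314832, both on the plus strand of mm10.
Tpm3: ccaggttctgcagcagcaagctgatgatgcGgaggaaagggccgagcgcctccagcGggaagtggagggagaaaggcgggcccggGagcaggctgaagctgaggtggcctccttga
Tpm3-rs7: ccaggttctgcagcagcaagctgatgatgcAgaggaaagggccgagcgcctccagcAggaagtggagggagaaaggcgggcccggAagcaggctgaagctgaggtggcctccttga

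Many short stretches read the same in both genes. Of the 2056 windows of 50 bases in the aligned part of the 8-exon transcript, 70.8% occur without any change in Tpm3-rs7. With windows of 100 bases the share was 50.8%, and with windows of 150 bases it was 34.6%. Neither the read length nor the handling of reads that match several places is given in the sources used here. Over all its transcripts Tpm3 has 6085 exonic bases, of which 2102 (34.5%) align to the copy through the 8-exon transcript. The other exonic bases lie outside this alignment. These sequences are those of the reference genome, of C57BL/6J mice, and the sequence of the mice studied was not read here.

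**Figure D1:**
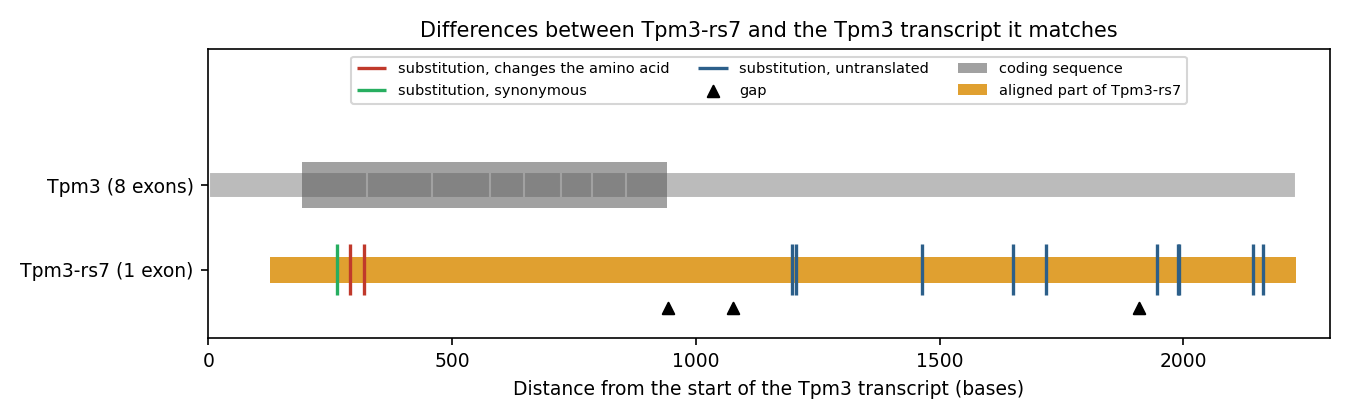
Map of Tpm3-rs7 against the 8-exon Tpm3 transcript, with the distance from the transcript's start in bases on the horizontal axis; grey boxes are the exons, the dark box the coding sequence, the orange bar the aligned part of the copy, coloured ticks the 13 substitutions and triangles the 3 gaps. The 3 coding substitutions sit near the start of the coding sequence, and the other 10 lie in the 3′ untranslated region.

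The other tropomyosins are set apart by sequence. Against the coding sequence of the 8-exon Tpm3 transcript, the closest annotated coding sequence was 75.8% identical for Tpm1, 73.3% for Tpm2 and 73.9% for Tpm4, against 99.6% for Tpm3-rs7. Among 50-base windows of their transcripts, Tpm1 and Tpm2 shared none with another annotated gene. Tpm4 shared 15.7% of its windows, with the processed pseudogene Gm7809 and the antisense gene Gm26586, which held 14 and 39 counts over the 6 libraries beside 10704 for Tpm4. Besides Tpm3-rs7, 6 annotated genes matched a Tpm3 transcript at 90% identity or more over at least 300 bases, namely Gm7839, Gm5996, Gm7848, Gm4157, Gm4903 and Tpm3-rs2. Each of them had a count of 0 in every library.

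Tpm3, which encodes gamma-tropomyosin, was counted less in the Abca4KO libraries. It measured 24.6, 32.9 and 33.2 CPM in Abca4KO replicates 1 to 3, and 121.7, 208.3 and 105.1 CPM in WT replicates 1 to 3. The genotypes did not overlap, and WT 2 stood above the other WT libraries. The mean was 30.2 ± 4.86 CPM in Abca4KO and 145.0 ± 55.4 CPM in WT (SD, n = 3 each), a log2 fold change (Abca4KO minus WT) of -2.26 with a standard error (SE) of 0.27. A log2 fold change of this size or larger, in either direction, was seen in 0.398% of all tested genes.

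Tpm3-rs7 had the opposite pattern. It measured 89.1, 127.3 and 108.9 CPM in Abca4KO replicates 1 to 3, and 6.65, 13.6 and 6.10 CPM in WT replicates 1 to 3. All Abca4KO libraries lay above all WT libraries, and WT 2 was again the highest WT library. The mean was 108.4 ± 19.1 CPM in Abca4KO and 8.78 ± 4.17 CPM in WT (SD, n = 3 each), with a log2 fold change of 3.63 (SE 0.32). A size at least that large was seen in 0.0980% of all tested genes. Of the 5 members, 1 passed the threshold over all genes, namely Tpm3-rs7 (higher), where 0.0346% of all tested genes passed as higher and 0.0115% as lower in Abca4KO. Libraries did not overlap in Tpm3-rs7 (higher) and Tpm3 (lower), where they did not overlap in 5.93% of all tested genes as higher, 6.85% as lower and 12.8% in either direction. The choice of the members used these differences, so nothing is read from these counts.

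Summed, the pair no longer separated the genotypes. Tpm3 plus Tpm3-rs7 measured 113.7, 160.2 and 142.1 CPM in Abca4KO replicates 1 to 3, and 128.3, 221.8 and 111.2 CPM in WT replicates 1 to 3. The lowest and the highest library were both WT, with all Abca4KO libraries between them. The mean was 138.6 ± 23.4 CPM in Abca4KO and 153.8 ± 59.5 CPM in WT (SD, n = 3 each). With the 2 rows replaced by their sum, the log2 fold change was -0.15 (SE 0.26), smaller than its standard error, and without WT 2 it was 0.21. The macrophage and microglia markers described with Tpm4 were also highest in WT 2 among the WT libraries, and their part in the level of the pair was not tested.

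**Figure D2:**
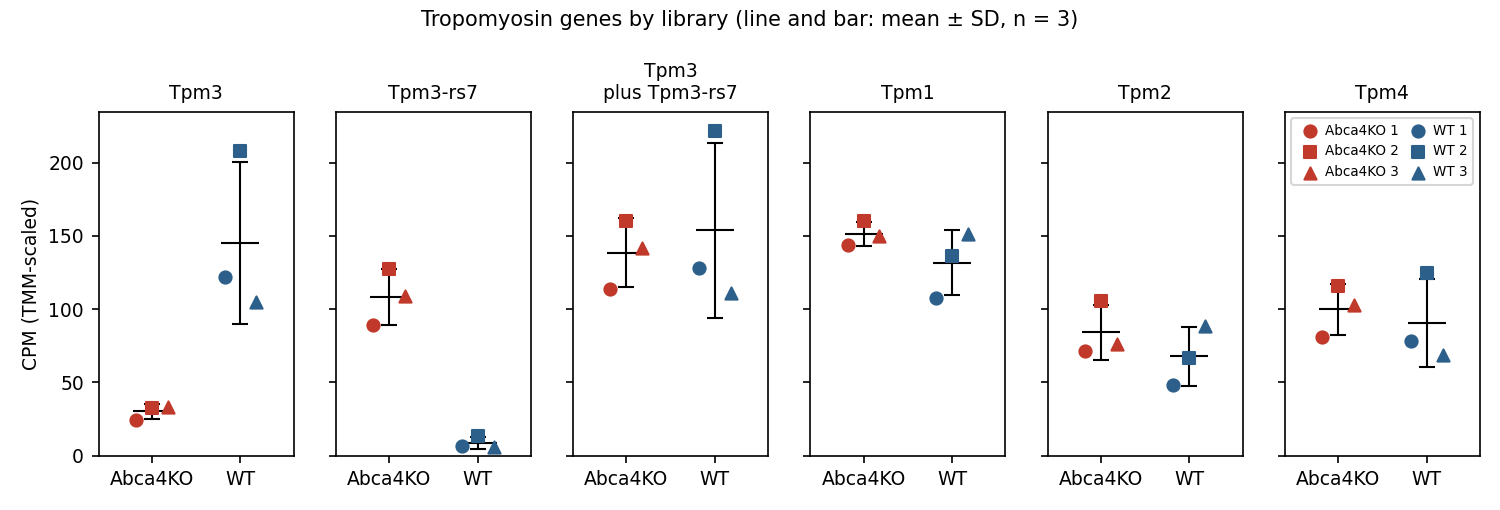
TMM-scaled CPM (vertical axis) of each tropomyosin gene and of the summed pair in the 3 Abca4KO and 3 WT libraries, with the mean and SD as black bars. Tpm3 and Tpm3-rs7 separate the genotypes in opposite directions, at 30.2 against 145.0 CPM and 108.4 against 8.78 CPM, while their sum and the other genes overlap.

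The split of the pair's counts was nearly the same in every library of a genotype. Tpm3-rs7 took 78.3%, 79.5% and 76.6% of the pair's raw counts in Abca4KO replicates 1 to 3, and 5.18%, 6.12% and 5.48% in WT replicates 1 to 3. The mean share was 78.2% ± 1.43 in Abca4KO and 5.60% ± 0.481 in WT (SD, n = 3 each). The 95% Wilson intervals of single libraries ran from 74.9% to 80.9% over the Abca4KO libraries and from 4.37% to 6.90% over the WT libraries, and they cover counting error only. Within each genotype, the intervals of the 3 libraries overlapped one another.

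The level of the pair varied more than its split. The highest library was 1.41 times the lowest in Abca4KO and 1.99 times the lowest in WT. WT 2, which held 4132 counts of the pair, gave Tpm3-rs7 a share within 1 percentage point of those in WT 1 and WT 3, with 2451 and 2043 counts. In the Abca4KO libraries the pair held 2240, 3104 and 2445 counts.

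**Figure D3:**
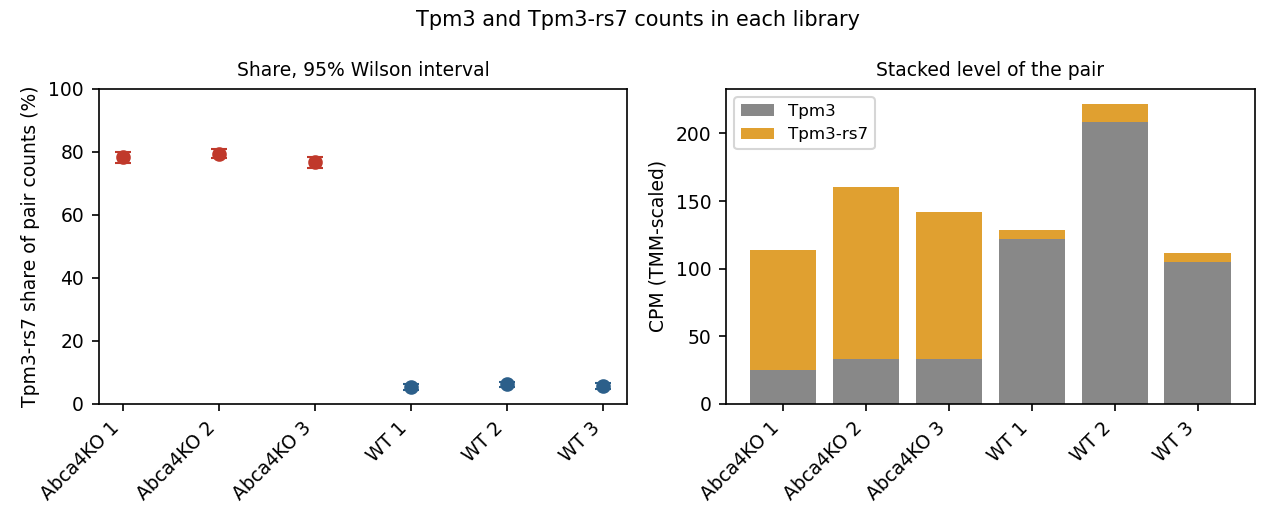
Left, the share of Tpm3-rs7 in the raw counts of Tpm3 plus Tpm3-rs7 in percent, with 95% Wilson intervals, for each library; right, the stacked TMM-scaled CPM of both genes. The share was 76.6% to 79.5% in the Abca4KO libraries and 5.18% to 6.12% in the WT libraries, while the stacked level overlapped.

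Tpm1 encodes alpha-tropomyosin, which is used in striated and smooth muscle and, as shorter forms, in other cells. It spans bases 67022590 to 67049406 of chromosome 9 (minus strand). It measured 144.1, 160.0 and 150.1 CPM in Abca4KO replicates 1 to 3, and 107.4, 136.4 and 151.2 CPM in WT replicates 1 to 3. The genotypes overlapped, since WT 3 lay above 2 of the Abca4KO libraries. The log2 fold change was 0.20 (SE 0.13).

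Tpm2 encodes beta-tropomyosin, a muscle form that is also made in fibroblasts. It spans bases 43514711 to 43523765 of chromosome 4 (minus strand). It measured 71.3, 105.9 and 75.95 CPM in Abca4KO replicates 1 to 3, and 48.6, 66.4 and 88.6 CPM in WT replicates 1 to 3. The genotypes overlapped here as well, with a log2 fold change of 0.32 (SE 0.24).

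Both genes were lowest in WT 1, and WT 3 was the highest WT library for each. The summed level of 12 skeletal muscle markers had the same order among the WT libraries. It was 719, 875 and 617 CPM in Abca4KO replicates 1 to 3, and 263.6, 415 and 949 CPM in WT replicates 1 to 3. All 12 of these markers were tested and none was at 0 throughout, 10 had a positive log2 fold change, and 0 passed the threshold. The summed level of 10 smooth muscle and pericyte markers was 780 to 886 CPM in Abca4KO and 582 to 732 CPM in WT. That of 8 fibroblast and sclera markers was 1727 to 2168 CPM in Abca4KO and 1397 to 1699 CPM in WT, so neither sum overlapped between the genotypes. Among single genes, 12.8% of all tested did not overlap. Much of the smooth muscle and pericyte sum was Rgs5, at 391 to 433 CPM in Abca4KO and 190 to 316 CPM in WT. Of its other markers, Myh11 and Abcc9 were higher and Cspg4 lower in Abca4KO without overlap, and the rest overlapped. The part of these marker sums in the levels of Tpm1 and Tpm2 was not tested.

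Tpm4 encodes a short tropomyosin of non-muscle cells and spans bases 72134975 to 72153142 of chromosome 8 (plus strand). It measured 81.3, 115.9 and 102.9 CPM in Abca4KO replicates 1 to 3, and 78.3, 124.7 and 68.97 CPM in WT replicates 1 to 3. As for the summed Tpm3 pair, WT 2 was the highest and WT 3 the lowest library, and the genotypes overlapped. The log2 fold change was 0.14 (SE 0.23); it was -0.01 without WT 3, and 0.56 without WT 2 and Abca4KO 1. The summed level of 8 macrophage and microglia markers was 1510, 2517 and 1992 CPM in Abca4KO replicates 1 to 3, and 1223, 1936 and 991 CPM in WT replicates 1 to 3. It was also lowest in WT 3 and, among WT libraries, highest in WT 2, and its part in the level of Tpm4 was not tested.

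Per kilobase of gene length, the order of the members differed between the genotypes. In Abca4KO, Tpm3-rs7 was first at 50.5 ± 8.91 CPM per kilobase, followed by Tpm4 at 45.4 ± 7.94, Tpm2 at 29.0 ± 6.46, Tpm1 at 23.3 ± 1.24 and Tpm3 at 4.97 ± 0.799 (SD, n = 3). In WT, Tpm4 was first at 41.2 ± 13.5 CPM per kilobase, followed by Tpm3 at 23.8 ± 9.10, Tpm2 at 23.3 ± 6.89, Tpm1 at 20.3 ± 3.44 and Tpm3-rs7 at 4.09 ± 1.94 (SD, n = 3). In Abca4KO, the libraries of neighbours in this order overlapped for Tpm3-rs7 with Tpm4 and for Tpm2 with Tpm1, and did not overlap for Tpm4 with Tpm2 or for Tpm1 with Tpm3. In WT, every pair of neighbours overlapped except Tpm1 with Tpm3-rs7. The deposited length of Tpm3, 6085 bases, includes exons outside the 8-exon transcript and lowers its level per kilobase.

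Over the whole family, the sum of the 5 genes was 474 ± 65.9 CPM in Abca4KO and 443.9 ± 95.6 CPM in WT (SD, n = 3 each). The libraries overlapped, at 410 to 542 CPM in Abca4KO and 363 to 549 CPM in WT. Tpm1 took 29.5% to 35.1% of the family's level in Abca4KO and 24.8% to 36.0% in WT. Tpm3 took 5.998% to 7.04% in Abca4KO and 25.0% to 37.9% in WT, and Tpm3-rs7 took 21.7% to 23.5% in Abca4KO and 1.45% to 2.47% in WT.

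The opposite differences of Tpm3 and Tpm3-rs7 were set beside other genes and their named copies. The table held 564 rows whose name is that of another gene in the table followed by -ps or -rs and a number, and in 108 of these pairs both genes were tested. The Tpm3 pair was chosen on these same counts and the other pairs were not, so its place among them is only described. For the Tpm3 pair, the log2 fold change of the copy minus that of the parent was 5.89. Over the other 107 pairs its median size was 0.18 and its largest size 1.43. Opposite signs occurred in 52 of these 107 pairs. Next to the Tpm3 pair, the largest differences between copy and parent with opposite signs were those of the ribosomal protein gene pair Rpl26-ps6 and Rpl26, at -1.28, and of Ybx1-ps2 and Ybx1, at -0.91. Both copies were counted at a low level. Rpl26-ps6 averaged 0.735 CPM in Abca4KO and 1.69 CPM in WT, and Ybx1-ps2 0.426 and 0.783 CPM. In none of the 107 pairs did either gene pass the threshold, or did both genes separate the genotypes in opposite directions. Of all tested genes, 0.0461% passed, and 5.93% as higher and 6.85% as lower did not overlap. Few such pairs would arise at these shares, so nothing is read from their absence. Copies not named after a parent gene were left out of these pairs. Among those left out, the processed pseudogenes Gm9347 and Gm7901 passed the threshold as higher in Abca4KO, with log2 fold changes of 4.49 and 2.48.

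**Figure D4:**
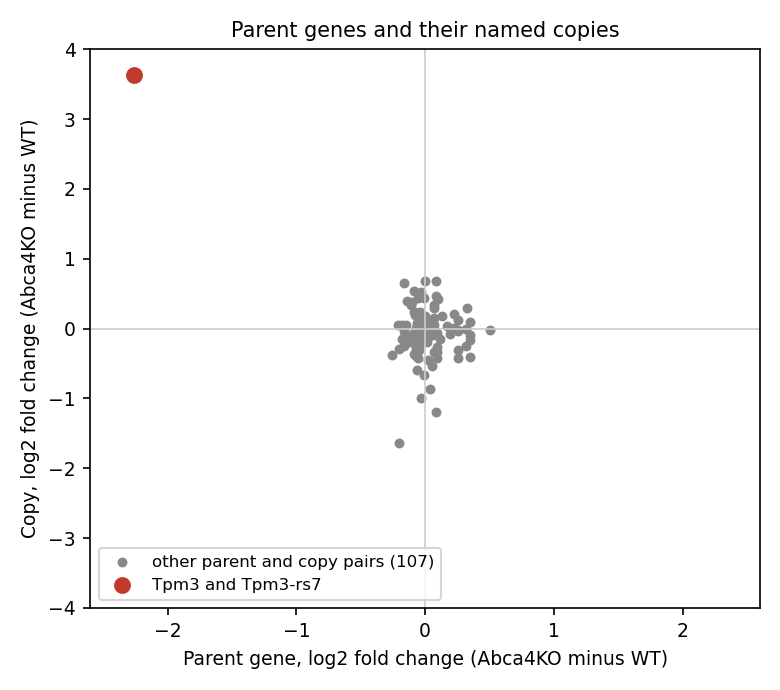
Log2 fold change (Abca4KO minus WT) of the copy on the vertical axis against that of the parent gene on the horizontal axis for the 108 pairs with both genes tested. The Tpm3 pair, which was chosen on these counts, lies at -2.26 and 3.63, and the other 107 pairs lie within a copy minus parent difference of 1.43.

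The genes next to Tpm3 and Tpm3-rs7 were compared as well. On chromosome 3, the nearest tested genes were 4933434E20Rik, 4.30 kb before Tpm3, and Nup210l, 3.23 kb after it. The first measured 96.6 ± 1.51 CPM in Abca4KO and 87.9 ± 2.45 CPM in WT (SD, n = 3 each), with a log2 fold change of 0.14 (SE 0.07, edgeR adjusted p = 0.746), and overlaps Ubap2l on the other strand. Nup210l was counted at a low level, at 0.793 ± 0.140 CPM in Abca4KO and 0.683 ± 0.426 CPM in WT (SD, n = 3 each). Within 500 kb of Tpm3, 32 genes were tested, with log2 fold changes from -1.67 to 0.68 and a median of 0.02. Of these, 1 passed, where 0.0461% of all tested genes did. It was the natriuretic peptide receptor gene Npr1 (lower in Abca4KO, log2 fold change -1.19, SE 0.11, edgeR adjusted p = 0.0196), 0.350 Mb from Tpm3. Libraries of the genotypes did not overlap in 12 of the 32 (37.5%), against 12.8% of all tested genes. Abca4, the targeted gene, lies 31.9 Mb from Tpm3 on the same chromosome. Around Tpm3-rs7 on chromosome 14, 3 genes were annotated within 500 kb and 0 were tested. The nearest tested genes were Slitrk5, 1631 kb before it, and Mir17hg, 1726 kb after it, and both overlapped between the genotypes.

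Genes with the most similar profile were ranked by Pearson's r of log2 CPM over the 6 libraries, among the 15671 tested genes that averaged 1 CPM or more. The values of r are a description of 6 libraries that share depth and tissue. For Tpm3 the 3 highest were Yap1 (r = 0.995), Slc37a2 (0.986) and Wfdc2 (0.986). Their levels moved far less than that of Tpm3. Yap1, a co-activator of the Hippo pathway, measured 187.8 to 188.9 CPM in Abca4KO and 213.8 to 229.7 CPM in WT. For Tpm3-rs7 the 3 highest were the non-coding gene Cep83os (r = 0.995), Ntng2 (0.994) and Tlcd1 (0.994). Tlcd1 overlaps the abundant Rpl23a on the other strand. Tpm3 itself had r = -0.88 with Tpm3-rs7. These values of r largely follow the gap between the genotypes, on which the members were chosen. Among the WT libraries, Tpm3 and Tpm3-rs7 were both highest in WT 2 and lowest in WT 3, and among the Abca4KO libraries both were lowest in Abca4KO 1.

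The summed pair had another profile, ranked the same way after the values of the pair had been seen. Its 3 most similar genes were the tubulin gene Tubb5 (r = 0.998), the leukocyte GTPase gene Rac2 (0.994) and the prostaglandin receptor gene Ptger4 (0.994). Rac2 measured 15.6, 36.6 and 25.3 CPM in Abca4KO replicates 1 to 3, and 18.4, 76.2 and 12.4 CPM in WT replicates 1 to 3. Like the pair, it was highest in WT 2 and lowest in WT 3. Tpm4 had r = 0.91 with the summed pair and stood at rank 866 of 15670 genes, while Tpm1 had r = 0.03 and Tpm2 0.00.

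Genes that act with tropomyosin on the actin filament were described by 11 lists with 126 symbols, of which 116 genes were tested. None passed the threshold over all genes in edgeR's quasi-likelihood test, where 0.0461% of all tested genes did. At an unadjusted p under 0.05, 9 of the 116 differed, and 7.02% of all tested genes did. With DESeq2 1 of the 116 passed, where 114 of all 17340 tested genes did. With limma-voom 1 passed, where 31 of all tested genes did, and the gene was Tmod4 in both. The median log2 fold change of the 116 genes was -0.04, beside -0.01 for all tested genes.

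Pointed-end caps bind the end of the filament together with tropomyosin, and 0 of 7 passed. Tmod4, the tropomodulin of skeletal muscle, had the smallest p among them. It measured 6.70, 5.83 and 7.55 CPM in Abca4KO replicates 1 to 3, and 1.94, 3.06 and 2.72 CPM in WT replicates 1 to 3, without overlap. Its log2 fold change was 1.38 (SE 0.26), with an edgeR adjusted p of 0.393 (DESeq2 adjusted p = 0.00776, limma-voom adjusted p = 0.0482). Lmod1, the leiomodin of smooth muscle, measured 22.2 ± 5.64 CPM in Abca4KO and 32.6 ± 4.47 CPM in WT (SD, n = 3 each, edgeR adjusted p = 0.669), and passed as lower only when WT 2 and Abca4KO 1 were left out (adjusted p = 0.0388). Tmod3, the broadly expressed tropomodulin, measured 64.5 ± 6.64 CPM in Abca4KO and 64.2 ± 12.3 CPM in WT (SD, n = 3 each).

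Among actins, 0 of 5 tested passed. Acta1, the skeletal muscle actin, measured 164.7 ± 42.3 CPM in Abca4KO and 126.0 ± 69.1 CPM in WT (SD, n = 3 each), and the cardiac actin gene Actc1 measured 5.40 ± 1.98 CPM in Abca4KO and 2.23 ± 1.80 CPM in WT (SD, n = 3 each). Of the troponin subunits, which make tropomyosin respond to calcium in striated muscle, 0 of 5 tested passed. The fast muscle forms led them, with Tnnt3 at 67.6 ± 14.9 CPM in Abca4KO and 52.6 ± 25.9 CPM in WT and Tnni2 at 34.5 ± 9.04 CPM in Abca4KO and 25.9 ± 10.5 CPM in WT (SD, n = 3 each). Acta1, Tnnt3 and Tnni2 belong to the skeletal muscle markers above, and Tnnt3 overlaps Prr33 on the other strand. Caldesmon, calponins and transgelins, which share the filament with tropomyosin in smooth muscle and other cells, also had 0 of 7 past the threshold, with log2 fold changes between -0.13 and 0.20. In this list Tagln2 measured 79.2 ± 20.7 CPM in Abca4KO and 68.9 ± 18.6 CPM in WT, and Cnn2 123.5 ± 15.4 CPM in Abca4KO and 130.7 ± 15.8 CPM in WT (SD, n = 3 each).

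For myosin II, the motor that tropomyosin admits to the filament, 0 of 13 passed. The smooth muscle heavy chain gene Myh11 measured 17.9 ± 4.06 CPM in Abca4KO and 11.0 ± 3.45 CPM in WT, without overlap (SD, n = 3 each, edgeR adjusted p = 0.700), and the myosin light chain kinase gene Mylk 77.7 ± 13.3 CPM in Abca4KO and 62.8 ± 5.95 CPM in WT (SD, n = 3 each). Of 17 genes of filament severing and turnover 0 passed. Ssh1, a phosphatase that activates cofilin, measured 42.8 ± 3.03 CPM in Abca4KO and 52.8 ± 0.775 CPM in WT without overlap (SD, n = 3 each, log2 fold change -0.30, edgeR adjusted p = 0.616), and the severing gene Scin 1.97 ± 0.810 CPM in Abca4KO and 3.97 ± 2.21 CPM in WT (SD, n = 3 each). Of 13 formins, which nucleate unbranched filaments, 0 passed, with Fhod1 at 39.7 ± 2.95 CPM in Abca4KO and 33.8 ± 1.75 CPM in WT and Daam2 at 89.3 ± 6.28 CPM in Abca4KO and 112.4 ± 20.8 CPM in WT (SD, n = 3 each). Fhod1 overlaps Tmem208 on the other strand, so its count is uncertain where reads are not separated by strand.

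Of the 10 subunits of the Arp2/3 complex, which nucleates branches on bare filaments, 8 had a positive log2 fold change and 0 passed, with a median of 0.07. Arpc1a measured 106.3 ± 8.20 CPM in Abca4KO and 96.1 ± 0.962 CPM in WT, and Actr2 180.6 ± 4.20 CPM in Abca4KO and 171.2 ± 19.2 CPM in WT (SD, n = 3 each). Of 18 cross-linkers and membrane linkers, 13 had a negative log2 fold change and 0 passed, with a median of -0.06. Among them Vcl, the adhesion protein vinculin, measured 37.0 ± 3.26 CPM in Abca4KO and 47.4 ± 4.81 CPM in WT (SD, n = 3 each, edgeR adjusted p = 0.616), and overlaps Ap3m1, which held 4700 counts beside its 4732. Ezr, which encodes ezrin of the RPE microvilli, measured 724 ± 98.5 CPM in Abca4KO and 843 ± 32.5 CPM in WT (SD, n = 3 each, edgeR adjusted p = 0.759), without overlap.

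Of 11 splicing regulators of tropomyosin exons 0 passed. The epithelial regulator Esrp2 measured 1.62 ± 0.357 CPM in Abca4KO and 3.11 ± 1.03 CPM in WT, and overlaps the larger Nfatc3. Rbfox2 measured 26.0 ± 2.56 CPM in Abca4KO and 21.9 ± 0.384 CPM in WT (SD, n = 3 each). Over all 116 partner genes, Abca4KO and WT libraries did not overlap in 13 (11.2%), near the 12.8% of all tested genes.

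**Figure D5:**
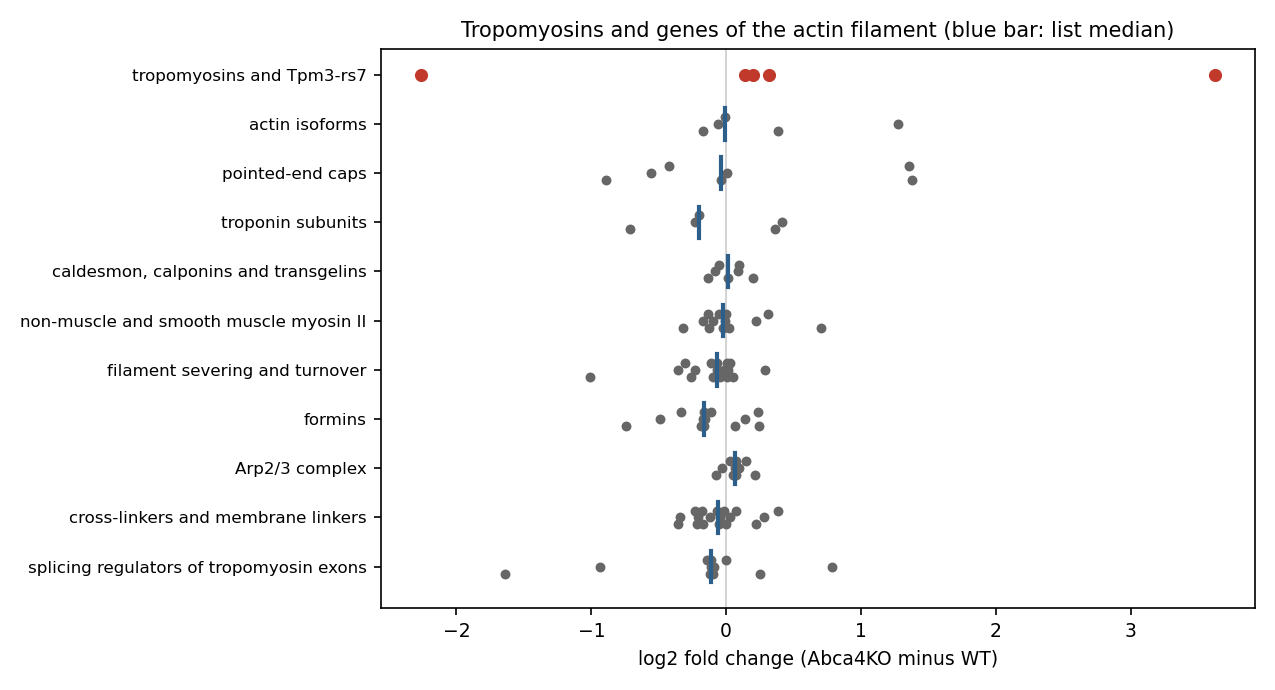
Log2 fold change (Abca4KO minus WT, horizontal axis) of the 5 members (red) and of the tested genes of 10 of the 11 partner lists (grey), with blue bars at the list medians. Tpm3 at -2.26 and Tpm3-rs7 at 3.63 lie outside the range of the 116 partner genes, which runs from -1.64 to 1.38.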

How the data were processed

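The deposited table holds raw counts per gene for 3 Abca4KO and 3 WT libraries. Per the submitters' processing notes, the authors aligned reads to mm10 with STAR and counted with HTSeq; versions, annotation release, strand setting, read length and the handling of multiply matching reads are not given in the sources used here. Libraries were made from total RNA with the NEBNext Ultra RNA kit, per the labels. The labels call the samples biological replicates.

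Counts were filtered with filterByExpr (minimum count 10), scaled by TMM and tested with edgeR 4.0.16 (quasi-likelihood, R 4.3.3), with Benjamini-Hochberg adjustment over 17340 genes and a threshold of 0.05. CPM values are scaled by TMM, and fold changes use a prior count of 0.125. DESeq2 1.42.0, limma-voom (limma 3.58.1), other scalings and filters, a replicate block and left-out libraries served as alternatives. On simulated data with 17063 genes, the edgeR test of Abca4KO against WT recovered 61 of 100 genes changed 2-fold and 95 of 100 changed 4-fold, with 2 false calls. The simulation gave every gene the same spread beyond counting noise and held no library that stands apart, so these rates need not hold for the real libraries. No pair of libraries agreed within counting noise (lowest chi-square per degree of freedom 13.5). A floor of 3 counts equals 0.152 to 0.174 CPM, and floors and Wilson intervals cover counting error only.

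The members and lists were chosen with earlier results of these data known, and the interferon response list was added after the values were seen. The text names the members and Abca4; per partner list, every gene past the threshold and up to 2 with the smallest unadjusted p; the 3 most similar genes (log2 CPM, prior count 1); the nearest tested neighbours; and annotated copies of Tpm3. Tmod3, Npr1, Gm9347, Gm7901, Rgs5, Abcc9, Cspg4 and the genes similar to the summed pair were named after their values were seen. Transcripts and sequences are from GENCODE M21 on mm10, which places all 5 members at the deposited coordinates. They were aligned with biopython 1.88 and searched for copies with blastn 2.17.0. One partner list and 1 marker gene are not reported here.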

Additional observations from a re-analysis of the deposited data

How the results depend on the processing

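Tpm3 stayed lower and Tpm3-rs7 higher in Abca4KO under all 15 alternatives run for each. Leaving out single libraries gave log2 fold changes of -2.44 to -1.91 for Tpm3, 3.43 to 4.09 for Tpm3-rs7, 0.07 to 0.32 for Tpm1, 0.12 to 0.56 for Tpm2, -0.01 to 0.44 for Tpm4 and -0.33 to 0.21 for the summed pair. Without WT 2 and Abca4KO 1 together, they were -1.79 for Tpm3, 4.20 for Tpm3-rs7, 0.56 for Tpm4 and 0.32 for the summed pair. Over all genes, 8 passed; 19 did with no filter beyond 1 count, 114 with DESeq2, 31 with limma-voom, 190 without WT 2 and Abca4KO 1 together, and 3 to 11 without single libraries (3 without Abca4KO 2, 3 without Abca4KO 3, 4 without WT 1); the cause was not tested. Of the partner genes, 0 passed, 1 with DESeq2, 1 with limma-voom, 1 without WT 2 and Abca4KO 1 together, and 0 to 0 without single libraries. With 2 libraries a genotype the spread rests on few samples.

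The deviations of libraries with the same replicate number correlated at 0.17, 0.34 and -0.08. These values alone do not decide whether the numbers pair the libraries. With the replicate block, 9 genes and 0 partner genes passed, and the log2 fold changes were -2.21 for Tpm3, 3.69 for Tpm3-rs7, 0.21 for Tpm1, 0.34 for Tpm2, 0.17 for Tpm4 and -0.10 for the summed pair. Levels near 0.2 CPM rest on a few counts and carry little information at this depth.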

Other observations

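Beyond the tropomyosins, several lists of markers of other cells had mostly positive log2 fold changes (Abca4KO minus WT), with 0 markers past edgeR's threshold in any list. The log2 fold change was positive for all 9 endothelial markers, and their summed level was 489 to 771 CPM in Abca4KO and 302 to 496.5 CPM in WT, which overlap. Of 8 fibroblast and sclera markers 7 were positive. Of 7 rod markers 7 were, but their summed level of 1605, 463 and 514 CPM in Abca4KO replicates 1 to 3, against 802, 283 and 732 CPM in WT replicates 1 to 3, was high in Abca4KO 1 and lay below WT 1 and WT 3 in the other Abca4KO libraries. The median log2 fold change of the endothelial list was 0.59, that of the fibroblast and sclera list 0.22 and that of the rod list 0.40, beside -0.01 for all tested genes. The 10 RPE markers had a median of 0.00. Other lists did not share the positive direction. Of 8 macrophage and microglia markers 4 were positive, with a median of -0.02. Of the 10 interferon response genes, which were high in WT 2, 0 were positive, with a median of -1.34.

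Of the 8 genes past the threshold over all genes, 3 lie on chromosome 3 with Tpm3. These are Abca4, Npr1 and Bcan, a gene of brain extracellular matrix (higher in Abca4KO, log2 fold change 2.32, edgeR adjusted p = 0.00920), 2.07 Mb from Tpm3.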
